A study of Mus musculus with 28 samples.

Results

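The heterozygous Tbl1xr1 D370Y allele was studied in mouse germinal center B cells both without and with the ImuBcl6 allele, and the question here was whether its effect on expression differs between these 2 backgrounds. The comparison is a difference of differences: the D370Y effect with ImuBcl6 minus the D370Y effect without it. A negative value means that D370Y lowered a gene more, or raised it less, when ImuBcl6 was present. It used 18 of the 28 RNA-seq libraries and 10697 autosomal genes with at least 1 CPM (reads scaled to library size, as deposited) in at least 3 of the 18.

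All 18 libraries carry 1 copy of Cg1Cre, which expresses Cre recombinase in B cells that respond to antigen. The groups were Tbl1xr1 D370Y/WT (called D370Y, 5 libraries), Tbl1xr1 WT/WT (WT, 3 libraries), ImuBcl6 with Tbl1xr1 D370Y/WT (ImuBcl6 D370Y, 5 libraries) and ImuBcl6 with Tbl1xr1 WT/WT (ImuBcl6, 5 libraries). A further 5 libraries labelled Tbl1xr1 KO/KO and their 5 Cre controls are used beside these as separate values. The sources used here give neither the age of the mice nor the sort of the cells. No label ties a library to an animal, so p-values measure only how these samples spread, and part of that may be technical.

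TBL1XR1 is built of WD40 repeats and belongs to the NCOR-type corepressors, which carry the histone deacetylase HDAC3. BCL6, the transcriptional repressor that establishes the germinal center, recruits these corepressors to hold down genes of activation, exit and differentiation. In ImuBcl6 an immunoglobulin heavy-chain promoter drives Bcl6, so that B cells keep making the repressor when they would otherwise turn it down. TBL1XR1 mutations recur in B cell lymphomas, and D370Y lies in the WD40 domain.

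Reads on listed genes numbered 19.02 to 22.2 M per library without ImuBcl6 and 31.8 to 37.7 M with it, so background and depth cannot be told apart. Both WT and ImuBcl6 D370Y consisted of libraries with the Y-linked pattern (Ddx3y at 36.8 to 100.2 CPM, Xist at 0.299 to 9.12), and both D370Y and ImuBcl6 of libraries without it (Ddx3y at 0 to 0.344, Xist at 303.6 to 1460). The difference of differences is therefore the same contrast as sex in these 18 libraries, and the 2 cannot be told apart. A constant difference between males and females enters it multiplied by 2. Each D370Y effect alone also compares libraries with the Y-linked pattern to libraries without it. D370Y and sex therefore cannot be told apart in either background, and effects named after D370Y below describe the groups as labelled. For this reason male minus female values are given beside the results from the libraries labelled KO and their Cre controls, of which 3 of 5 and 1 of 5 have the Y-linked pattern, and for the called genes they are also plotted. Over the called genes the SE of these values ran from 0.11 (Reln) to 0.98 (Eps8l1), and doubling a value doubles its SE. A value near 0 therefore does not show that sex had no part, which was not tested. Genes on X and Y were kept out. B cell identity markers, 10 of 10 of them tested, were high in every library, with summed levels of 6358 to 8441 CPM, and no member of that list had a called difference.

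The difference of D370Y effects was called at 36 of 10697 genes (0.337%), by limma at a Benjamini-Hochberg adjusted p under 0.05. Of these, 34 had a negative difference (0.318%) and 2 a positive one (0.0187%). Among these 36 genes 29 had estimates that rose without ImuBcl6 and fell with it, 2 had the opposite pattern, and 5 were below 0 in both backgrounds. The effect with ImuBcl6 passed the test by itself in 35 of the 36, in 33 of them downward (backgrounds of 10.7% and 6.96% of all genes). The effect without ImuBcl6 passed in 7 (background 2.42%). The contrast that selected these genes contains both effects, so such counts follow in part from the selection. The effect without ImuBcl6 also had the larger median SE over all genes, 0.103 against 0.0891. ImuBcl6 had the highest of the 4 group means in 25 of the 34 negative genes and ImuBcl6 D370Y the lowest in 21, and both held together in 14. In 27 of the 34 the ImuBcl6 D370Y libraries lay below every ImuBcl6 library. CPM ranges that did not overlap between those groups, in either direction, were found in 8.73% of all genes tested, and between D370Y and WT in 14.5%. The first share is from 5 against 5 libraries and the second from 5 against 3. Ranges of smaller groups separate more often by chance, so the 2 shares cannot be compared directly. The group order and ranges of the 34 genes come from the values that selected them. They describe the form of the calls and are no separate support for them. At an unadjusted p under 0.05 there were 1322 genes. Of the 36 genes 10 were called in every fit that left out 1 library (1700048O20Rik, Atp10b, Capn11, Efcab7, Emp2, Eps8l1, Nfic, Rgs3, Tox and Zfp365), and the other 26 lost the call in 1 to 15 of these 18 fits. By DESeq2 159 genes were called, 28.9% of them higher, and by edgeR 32. The median difference over all genes was -0.01 on the log2(CPM + 1) scale, the scale of every effect and difference given here, and the median 95% interval reached 0.284 to either side.

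**Figure D1:**
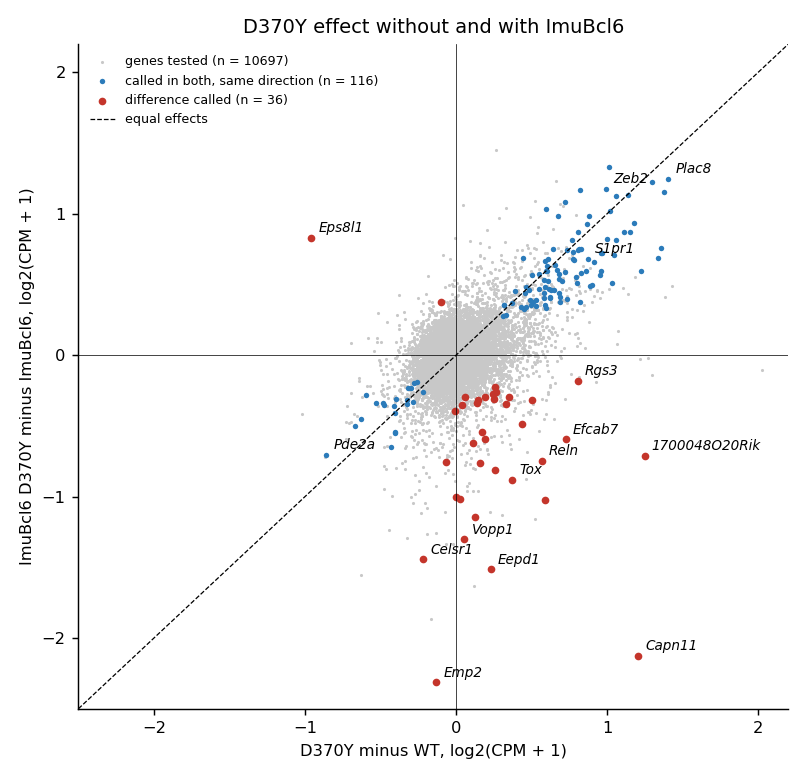
D370Y effect without ImuBcl6 (horizontal axis, log2 CPM + 1) against the D370Y effect with ImuBcl6 (vertical axis, same scale), 1 point per gene tested. The 116 blue genes passed the test in both backgrounds with the same sign and lie near the dashed line of equal effects. Of the 36 red genes, whose difference was called, 34 lie below that line.

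Capn11 had the largest difference. It encodes a calpain, a calcium-dependent protease otherwise known from testis, and lies at chromosome 17, 45630204 to 45659325, minus strand (GENCODE M21, GRCm38). Its level was 0.043, 0 and 0 CPM in WT and 1.22, 1.80, 1.15, 0.934 and 1.72 in D370Y. With ImuBcl6 it was 2.33, 3.10, 3.87, 4.47 and 3.32 CPM, and it was 0 in all 5 ImuBcl6 D370Y libraries. D370Y thus went with more Capn11 RNA in one background and with none detected in the other, and no group overlapped another except WT and ImuBcl6 D370Y. Over WT, which had 1 read in all, the D370Y libraries held 170 reads, a ratio of 93.1 with an exact 95% counting interval of 16.5 to 3700. In ImuBcl6 it was at least 45.7-fold higher than in ImuBcl6 D370Y, taking 3 reads as the limit of a library. The fitted difference of effects was -3.33 ± 0.19 (SE, limma adjusted p = 9.59e-10), a value that depends on the pseudocount at such low levels. In the other 10 libraries Capn11 averaged 0 CPM with the Y-linked pattern and 0.127 without it. It was 0 in all 5 libraries labelled KO. Every library of the series with that pattern thus held 0 or 1 read of Capn11. Male minus female was -0.08, but at levels this close to 0 it cannot show the size of a sex difference. Slc29a1, a nucleoside transporter gene 30.6 kb away, had a called difference of -0.46 ± 0.10 (adjusted p = 0.0435) and kept its call in 3 of the 18 fits without 1 library.

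Emp2, a tetraspan membrane protein of the epithelial membrane protein family, had the next largest difference (chromosome 16, 10281749 to 10313968, minus strand). It was 7.49, 7.83 and 6.78 CPM in WT and 4.53, 8.34, 4.34, 10.05 and 7.51 in D370Y. In ImuBcl6 it was 6.98, 9.13, 6.42, 6.27 and 15.3 CPM, against 1.18, 0.704, 0.824, 1.06 and 0.702 in ImuBcl6 D370Y. Every ImuBcl6 D370Y library was below every library of the other 3 groups, and D370Y and WT overlapped. The effect was -0.13 ± 0.24 without ImuBcl6 and -2.31 ± 0.21 with it, a difference of -2.18 ± 0.32 (SE, limma adjusted p = 0.00228), beside a male minus female value of -0.04. In the libraries labelled KO, Emp2 was 1.13, 0.467, 0.976, 1.46 and 0.525 CPM, each below the lowest of the Cre controls at 5.08, 5.03, 5.58, 3.93 and 7.33 (log2 change -1.75, limma adjusted p = 2.74e-05). Tbl1xr1 reads were not lower in those libraries (102.2 ± 15.4 CPM against 86.0 ± 5.82, SD, n = 5 each), so the direction rests on their label.

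Celsr1, an adhesion G protein-coupled receptor of planar cell polarity, was likewise low only in ImuBcl6 D370Y among the 4 groups. WT libraries held 19.9, 23.2 and 19.1 CPM, D370Y 20.5, 17.7, 13.1, 23.3 and 15.5, and ImuBcl6 15.5, 22.9, 23.5, 19.1 and 21.2. In ImuBcl6 D370Y it was 9.04, 7.90, 4.34, 5.65 and 8.12 CPM. Its 5 libraries lay below every library of the other 3 groups. The difference was -1.23 ± 0.25 (adjusted p = 0.0414) with male minus female at -0.23, and the call was lost in 9 of the 18 fits that left out 1 library (adjusted p up to 0.174). Celsr1 was also lower in the libraries labelled KO, at 7.82 to 11.2 CPM against 18.8 to 31.9 in the Cre controls (log2 change -1.26, adjusted p = 6.14e-05). Of the 36 genes 7 passed the test for KO against Cre control (background 1.43% of 10697), 6 of them lower (background 0.944%): Celsr1, Cryz, Efcab7, Eif2c4, Emp2 and Vopp1 fell and 1700048O20Rik rose. This comparison was added after the values were seen, and it shares no library with the other 18. It had no term for sex, although 3 of 5 libraries labelled KO and 1 of 5 Cre controls had the Y-linked pattern.

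**Figure D2:**
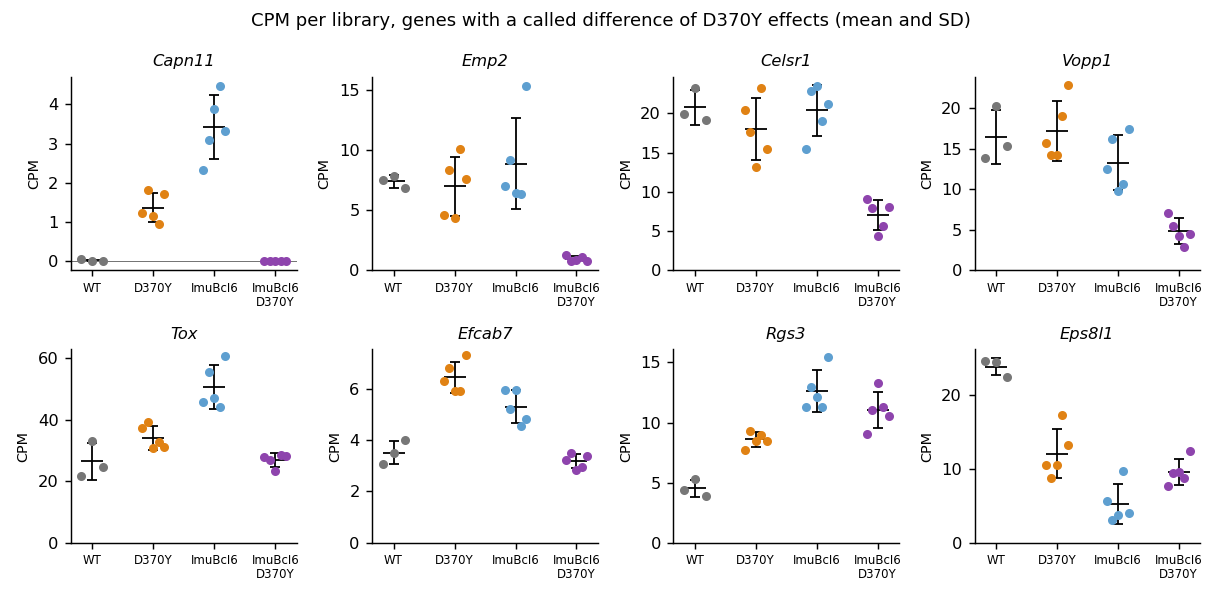
CPM of 8 genes with a called difference of D370Y effects, in each of the 18 libraries (points) with the group mean and SD (black). Capn11, Emp2, Celsr1 and Vopp1 were lowest in ImuBcl6 D370Y, Efcab7 and Rgs3 rose with D370Y against WT, and Eps8l1 fell with D370Y against WT and rose with D370Y against ImuBcl6.

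Vopp1, a membrane protein gene that is often amplified together with EGFR in tumors, and Atmin, a zinc finger cofactor of the ATM kinase, were the called genes whose promoter window held TTCCNNGAA, a form of the BCL6 binding core, on either strand. These stretches are printed to show the matching letters, in capitals. They are from RefSeq's promoter table for GRCm38.p6, written 5′ to 3′ on the gene's own strand: chr6:57825266-57825334, minus strand, for Vopp1 and chr8:116943198-116943266, plus strand, for Atmin. The Vopp1 match begins 179 bases before the start of transcription. The Atmin match begins 165 bases before it and holds the motif on the opposite strand, where it is read as its reverse complement.
Vopp1 promoter: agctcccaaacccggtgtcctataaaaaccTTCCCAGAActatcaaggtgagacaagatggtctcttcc
Atmin promoter: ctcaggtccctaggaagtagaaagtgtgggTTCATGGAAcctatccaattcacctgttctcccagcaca
Windows reach from 250 bases before to 50 after the start, and both strands were searched. TTCCNNGAA was present in 2 of 30 called lower genes with a window (6.67%), in 0 of 1 called higher, and in 473 of 8506 tested genes (5.56%). The wider TTCNNNGAA, which every TTCCNNGAA match also meets and which is its own reverse complement, was in 3 of 30 (10%), the further match being Nfic, and in 705 of 8506 (8.29%). These shares describe letters in a window and do not show binding.

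Vopp1 itself was 13.9, 20.3 and 15.3 CPM in WT and 15.7, 14.2, 14.3, 19.1 and 22.8 in D370Y. It was 12.5, 16.2, 9.73, 10.7 and 17.4 in ImuBcl6 and 7.12, 5.44, 4.22, 2.89 and 4.51 in ImuBcl6 D370Y. The first 3 groups overlapped, and ImuBcl6 D370Y was below all of them. The difference of effects was -1.36 ± 0.28 (limma adjusted p = 0.0426), male minus female was 0.13, and the call was lost in 10 of the 18 fits without 1 library. Eepd1, which encodes an endonuclease-family protein that also takes part in cholesterol efflux, followed the same form at 4.39 to 7.14 CPM in WT, 4.47 to 7.88 in D370Y, 6.82 to 23.6 in ImuBcl6 and 2.12 to 4.69 in ImuBcl6 D370Y. Its difference was -1.74 ± 0.35 (adjusted p = 0.0349) with male minus female at 0.35, and it lost its call in 10 of those fits.

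Tox, a nuclear HMG-box factor of lymphocyte development and T cell exhaustion, stood highest in the ImuBcl6 group. It was 21.6, 33.1 and 24.7 CPM in WT, 37.4, 39.2, 30.7, 32.6 and 31.0 in D370Y, 45.7, 55.5, 47.2, 44.1 and 60.9 in ImuBcl6, and 27.7, 26.9, 23.2, 28.4 and 28.3 in ImuBcl6 D370Y. ImuBcl6 was above every other library, D370Y was above ImuBcl6 D370Y, and WT overlapped both of these. The effect was 0.37 ± 0.12 without ImuBcl6 and -0.88 ± 0.11 with it, a difference of -1.25 ± 0.16 (limma adjusted p = 0.000643). Tox is also expressed by T cells: the summed T cell markers, 13 genes, were 267.7 to 352.5 CPM without ImuBcl6, 346.9 to 458.2 in ImuBcl6 and 382.6 to 466.8 in ImuBcl6 D370Y, and their part in the result was not tested. For Tox male minus female was -0.16.

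Atp10b and Hoxa5 were highest in ImuBcl6 too, at low levels. Atp10b, a lipid flippase subunit, was 0.133 to 0.602 CPM in WT, 0.215 to 0.922 in D370Y, 1.54 to 2.51 in ImuBcl6 and 0.275 to 0.598 in ImuBcl6 D370Y. Its difference was -1.27 ± 0.20 (limma adjusted p = 0.00489), with male minus female at -0.17. Hoxa5, a homeobox factor, had a difference of -1.04 ± 0.22 (adjusted p = 0.0435) and kept its call in 4 of the 18 fits without 1 library. Its male minus female value of -0.01 comes from libraries that averaged 0.013 CPM in either sex, too low to show a sex difference. Etl4 stood higher in ImuBcl6, at 28.5 to 37.4 CPM, than in the other groups, at 10.6 to 21.97. Its difference was -0.9999 ± 0.21 (adjusted p = 0.0467), male minus female was -0.37, and the call was also kept in 4 of those fits.

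A second form was a gain with D370Y in the WT background that reversed with ImuBcl6. Efcab7, an EF-hand protein of the ciliary Hedgehog pathway, was 3.06, 3.49 and 3.99 CPM in WT and 6.30, 6.79, 5.91, 5.92 and 7.30 in D370Y. It was 5.96, 5.20, 5.96, 4.55 and 4.81 in ImuBcl6 and 3.20, 3.48, 2.82, 2.96 and 3.37 in ImuBcl6 D370Y. Neither pair of groups overlapped, in opposite directions. The effect was 0.72 ± 0.11 without ImuBcl6 (limma adjusted p = 0.00157) and -0.59 ± 0.09 with it (adjusted p = 0.000429), and the difference was -1.32 ± 0.14 (adjusted p = 5.13e-05). The male minus female value was -0.04.

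The gene model 1700048O20Rik rose from 3.70, 2.71 and 2.79 CPM in WT to 8.51, 7.71, 8.48, 11.0 and 7.64 in D370Y. It was 9.90, 8.84, 6.84, 8.53 and 8.55 in ImuBcl6 and 8.72, 3.63, 4.99, 4.45 and 3.41 in ImuBcl6 D370Y. The first pair was separate, and in the second 4 of 5 ImuBcl6 D370Y libraries were below every ImuBcl6 library, the exception being replicate 1. The difference was -1.96 ± 0.25 (limma adjusted p = 0.000584). Zfp365, a zinc finger gene involved in genome stability, moved the same way: 1.38 to 1.85 CPM in WT against 2.28 to 3.28 in D370Y, and 2.06 to 4.87 in ImuBcl6 against 0.889 to 1.34 in ImuBcl6 D370Y. Both pairs were separate, with a difference of -1.61 ± 0.22 (adjusted p = 0.000645). Male minus female was -0.08 for 1700048O20Rik and 0.06 for Zfp365.

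Nfic and Ccdc21 were also called in both backgrounds with opposite signs. Nfic encodes a nuclear factor I transcription factor. It was 9.64, 10.3 and 7.36 CPM in WT and 13.7, 12.6, 12.2, 13.4 and 13.9 in D370Y, then 11.0, 13.4, 13.5, 13.0 and 13.6 in ImuBcl6 and 9.55, 9.80, 9.81, 11.0 and 10.6 in ImuBcl6 D370Y. D370Y lay above WT, and ImuBcl6 D370Y lay below ImuBcl6 apart from an overlap at replicate 1 of ImuBcl6. The difference was -0.82 ± 0.13 (limma adjusted p = 0.00448), with male minus female at 0.01. Ccdc21, the older symbol of the centrosomal gene Cep85, rose by 0.35 ± 0.09 (adjusted p = 0.0437) without ImuBcl6 and fell by 0.29 ± 0.08 (adjusted p = 0.0192) with it, but the first call did not survive leaving out several single libraries. In all, 6 genes were called in both backgrounds with opposite signs, and each of the 6 had a called difference.

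Rgs3, a regulator that shortens G protein signalling from chemokine receptors, was the 1 gene of the 36 that passed the test without ImuBcl6 and not with it. It was 4.39, 5.29 and 3.86 CPM in WT and 7.74, 9.31, 8.48, 8.99 and 8.46 in D370Y, against 11.3, 12.9, 12.1, 11.3 and 15.5 in ImuBcl6 and 9.08, 11.0, 13.3, 11.3 and 10.6 in ImuBcl6 D370Y. WT was lowest and D370Y intermediate, with an overlap at replicate 1 of ImuBcl6 D370Y. The ImuBcl6 groups overlapped each other at a mostly higher level. The D370Y effect was 0.81 ± 0.12 (limma adjusted p = 0.00157) without ImuBcl6 and -0.18 ± 0.10 (adjusted p = 0.283) with it, and the difference was -0.98 ± 0.15 (adjusted p = 0.00448). Its male minus female value of -0.21 doubles to -0.41. Cysltr2, a receptor for cysteinyl leukotrienes, had estimates of 0.43 ± 0.12 and -0.49 ± 0.11 at levels of 0.731 to 2.71 CPM. Its difference was -0.92 ± 0.16 (adjusted p = 0.0101), beside a male minus female value of -0.11.

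Of the 2 positive differences, Eps8l1, an adaptor of the EPS8 family that links receptors to actin, was the larger. It was 24.6, 24.4 and 22.4 CPM in WT and 10.5, 8.76, 10.6, 17.2 and 13.1 in D370Y. With ImuBcl6 it was 5.68, 3.07, 3.70, 9.71 and 4.02, and with both alleles 7.61, 9.35, 9.58, 8.68 and 12.4. D370Y was below WT without overlap, while ImuBcl6 D370Y was mostly above ImuBcl6, with ImuBcl6 replicate 4 inside its range. The difference was 1.79 ± 0.31 (limma adjusted p = 0.0107). Male minus female was -1.11, of the opposite sign, in libraries where Eps8l1 varied from 0.105 to 27.9 CPM among those labelled KO alone. D1Ertd622e, 15.6 to 17.4 CPM in ImuBcl6 and 19.97 to 25.1 in the other 3 groups, had a difference of 0.48 ± 0.10 (adjusted p = 0.0426), and its male minus female value of 0.22 doubles to 0.43. It kept its call in 4 of the 18 fits without 1 library, and its difference was 0.04 with the term for the Y-linked pattern.

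Further genes with a negative difference lay between -1.31 and -0.35. Argonaute genes Eif2c4 (Ago4) and Eif2c1 (Ago1), 20.96 kb apart on chromosome 4 and active in small RNA silencing, differed by -0.92 ± 0.16 (limma adjusted p = 0.0101) and -0.48 ± 0.10 (adjusted p = 0.0496). Lrrc8b and Lrrc8c, subunits of volume-regulated anion channels 29.3 kb apart on chromosome 5, differed by -1.07 ± 0.21 (adjusted p = 0.0316) and -0.56 ± 0.10 (adjusted p = 0.011). These pairs and Capn11 with Slc29a1 were the only called genes within 1 Mb of each other, and whether reads of neighbours were shared in counting was not tested. Reln, the secreted glycoprotein reelin, differed by -1.31 ± 0.27 (adjusted p = 0.0426), at 23.7 to 32.1 CPM in WT, 32.7 to 54.7 in D370Y, 31.5 to 46.1 in ImuBcl6 and 16.2 to 33.2 in ImuBcl6 D370Y. Others were Zmiz1, a PIAS-like coregulator (-0.73 ± 0.13, adjusted p = 0.0101), Ksr1, a scaffold of the RAF and MAPK cascade (-0.71 ± 0.15, adjusted p = 0.0467), and Coro2b, an actin-binding coronin (-0.79 ± 0.15, adjusted p = 0.0252). Cyfip2, a subunit of the WAVE actin regulator, was the most abundant of the 36. It fell from 1102 to 1174 CPM in ImuBcl6 to 834 to 894 in ImuBcl6 D370Y, with WT at 843 to 864 and D370Y at 761 to 937. Its difference was -0.39 ± 0.08 (adjusted p = 0.0414). Of the 18 fits without 1 library, Reln and Cyfip2 kept their call in 6, Ksr1 in 4 and Eif2c1 in 3. Lrrc8b kept it in 13, Coro2b in 16, and Eif2c4, Lrrc8c and Zmiz1 in 17. Male minus female was -0.54 for Reln (doubled, -1.08), -0.27 for Lrrc8b, -0.22 for Zmiz1, -0.17 for Coro2b and -0.11 for Ksr1. For Eif2c4 it was 0.02 ± 0.12 (SE), for Eif2c1 0.05 ± 0.12, for Lrrc8c 0.01 ± 0.14 and for Cyfip2 -0.02 ± 0.13.

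**Figure D3:**
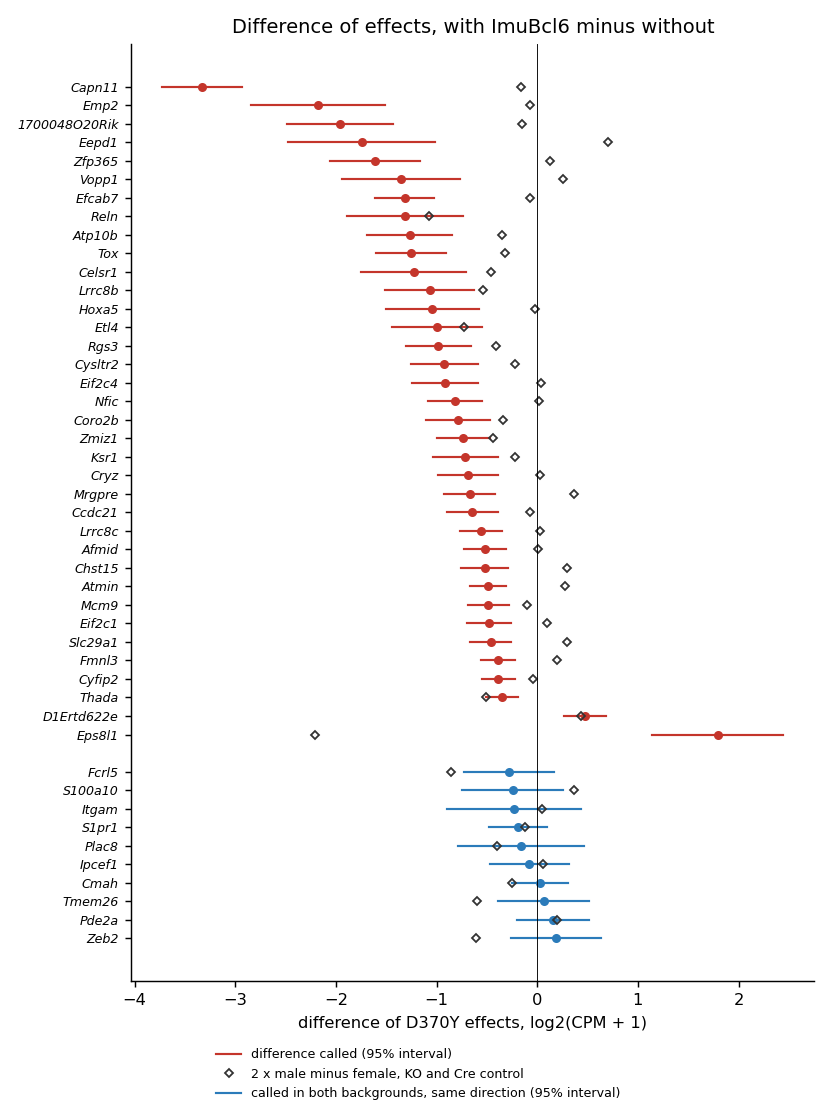
Difference of D370Y effects (log2 CPM + 1, with ImuBcl6 minus without) and its 95% interval for the 36 called genes (red) and 10 genes called in both backgrounds in the same direction (blue). Open diamonds give 2 times male minus female from the libraries labelled KO and their Cre controls: they lie near 0 for Capn11 and Emp2, near the difference for Reln and Thada, and on the other side for Eps8l1. The diamonds are drawn without an interval. Capn11 was near 0 CPM in those libraries, so its diamond cannot show the size of a sex difference.

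Set beside these differences, the male minus female comparison in the 10 other libraries called 1 of 10697 genes (0.00935%), with 1982 at an unadjusted p under 0.05. For 6 of the 36 genes (Zmiz1, Lrrc8b, D1Ertd622e, Reln, Thada and Etl4) 2 times male minus female had the sign of the difference and at least 50% of its size. Male minus female was below 0 in 20 of the 34 genes with a negative difference, and in 3923 of all 10697 genes. When all 28 libraries were fitted with a term for the Y-linked pattern, 35 of the 36 genes kept the sign of the difference, 23 of them with an unadjusted p under 0.05, and Thada turned to 0.15. Capn11 was the only gene called (log2 difference -3.17, limma adjusted p = 1.47e-05). That fit takes the size of the sex difference from the 10 libraries labelled KO and Cre control alone, and it moved the median difference of all genes to -0.19. Capn11, Hoxa5, Cysltr2 and Atp10b averaged at most 0.34 CPM in either sex there. At such levels neither the term nor male minus female can show the size of a sex difference.

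Genes called between D370Y and WT mostly had an estimate of the same sign between ImuBcl6 D370Y and ImuBcl6. Without ImuBcl6 259 genes were called (2.42%), 205 higher (1.92%) and 54 lower (0.505%), and with ImuBcl6 1143 (10.7%), 398 higher (3.72%) and 745 lower (6.96%). The higher share of the latter, 34.8%, was 45.7% with CPM over reads on listed genes and 49.2% by DESeq2. Called in both with the same sign were 116 genes, 95 higher and 21 lower, which is 44.8% of the first set and 10.1% of the second. None of these 116 had a called difference. Of the 137 genes called without ImuBcl6 but not with it, 1 had a called difference, and of the 1021 called with it but not without it, 29 had one, so for nearly all of them a difference between backgrounds was not shown. The estimate with ImuBcl6 had the same sign for 230 of the 259 genes (88.8%), against 59.8% over all genes. Across genes, which are not independent replicates, Pearson's r of the 2 effects was 0.40 and Spearman's rho 0.31. The 2 effects share no library. Each also compares libraries with and without the Y-linked pattern, but in opposite directions: WT has it and D370Y lacks it, while ImuBcl6 D370Y has it and ImuBcl6 lacks it. A constant sex difference therefore enters the 2 effects with opposite signs. With all 28 libraries and a term for that pattern, 15 genes were called without ImuBcl6 and 260 with it. Of these, 1 was called in both with the same sign.

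S1pr1, the receptor by which lymphocytes leave tissues toward sphingosine-1-phosphate, was 39.2, 34.9 and 35.5 CPM in WT and 64.3, 76.1, 65.0, 68.7 and 64.6 in D370Y. It was 26.5, 27.2, 23.4, 26.4 and 19.9 in ImuBcl6 and 36.5, 39.9, 49.2, 39.8 and 35.6 in ImuBcl6 D370Y. D370Y was above its control without overlap in both backgrounds, from a lower starting level with ImuBcl6. The effects were 0.87 ± 0.10 and 0.68 ± 0.09, and their difference was -0.19 with a 95% interval from -0.48 to 0.09 (limma adjusted p = 0.594, male minus female -0.06).

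Zeb2, a transcription factor of atypical memory and effector lymphocytes, was 12.6 to 15.6 CPM in WT, 25.8 to 35.1 in D370Y, 8.63 to 16.5 in ImuBcl6 and 22.2 to 35.1 in ImuBcl6 D370Y. Both D370Y groups were separate from and above their controls, and the difference was 0.18, with an interval from -0.27 to 0.63 (male minus female -0.30). Plac8, a cysteine-rich protein of innate and memory lymphocytes, was 26.2 to 28.5 CPM in WT and 57.5 to 85.7 in D370Y, then 40.4 to 67.3 in ImuBcl6 and 96.1 to 257.9 in ImuBcl6 D370Y. Its difference was -0.16, with an interval from -0.78 to 0.47, which includes differences as large as some called ones (male minus female -0.20). Fcrl5, an Fc receptor-like protein of atypical memory B cells, had effects of 1.15 ± 0.16 and 0.87 ± 0.14 and a difference of -0.28 (interval -0.73 to 0.17, male minus female -0.43). Pde2a, a cyclic nucleotide phosphodiesterase, fell in both: 102.1 to 113 CPM in WT and 47.8 to 68.4 in D370Y, 77.8 to 119 in ImuBcl6 and 49.6 to 64.7 in ImuBcl6 D370Y. Its difference was 0.16 (interval -0.20 to 0.52, male minus female 0.10).

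**Figure D4:**
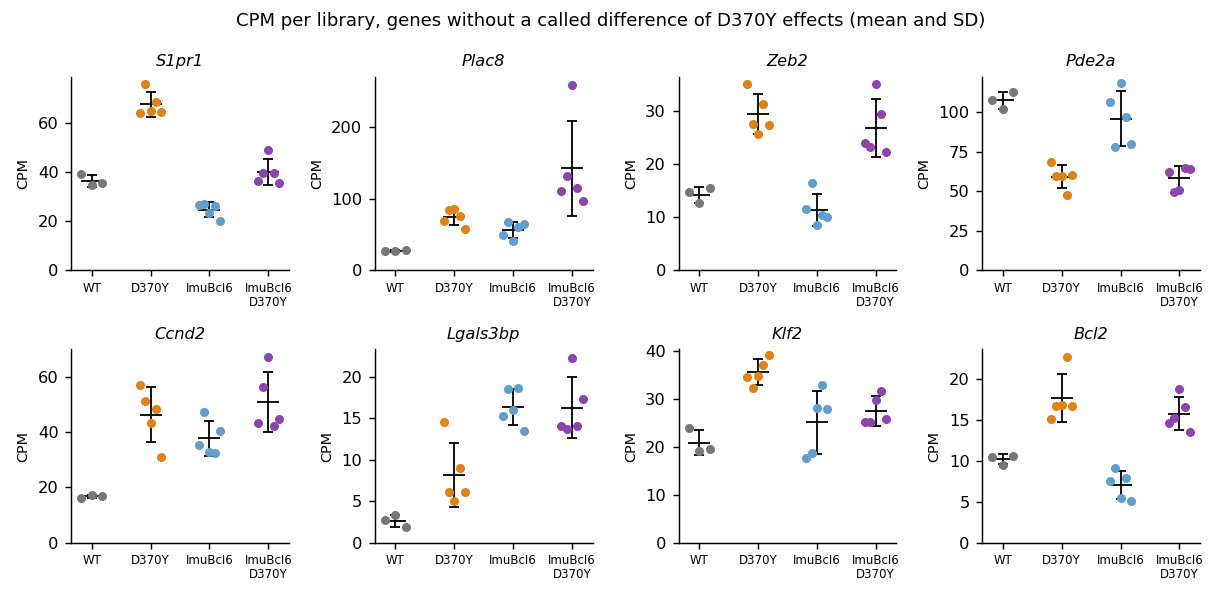
CPM of 8 genes without a called difference of D370Y effects in each of the 18 libraries (points), with group mean and SD (black). S1pr1, Plac8, Zeb2 and Bcl2 were higher and Pde2a lower with D370Y in both backgrounds, while Ccnd2, Lgals3bp and Klf2 rose with D370Y against WT and their D370Y effect with ImuBcl6 did not pass the test.

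No gene list had a member with a called difference, so the lists are described by their medians beside the all-gene median of -0.01, where 5499 of 10697 genes were below 0. With the term for the Y-linked pattern the all-gene median difference was -0.19, and the all-gene median of male minus female was 0.08. List medians of these kinds stand beside those values and not beside -0.01. In the memory B cell list 11 of 24 tested members rose with D370Y without ImuBcl6, and 11 rose and 1 fell with it, with median effects of 0.63 and 0.52. Over all genes tested 1.92% rose and 0.505% fell without ImuBcl6, and 3.72% rose and 6.96% fell with it, and the list counts below stand beside these shares. The median difference of the memory genes was -0.06, with 14 of 24 below 0, and it was 0.12 with the term for the Y-linked pattern (median male minus female -0.05). Member differences ran from -0.94 to 0.57. The memory gene with the lowest p was Ltb, the membrane anchor of lymphotoxin, at 0.54 (limma adjusted p = 0.136). Naive B cell genes rose in 6 of 17 without ImuBcl6 and 11 of 17 with it, and their median difference was 0.11, or -0.01 with that term (median male minus female 0.03).

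Among the BCL6 repression targets, 6 of 25 rose with D370Y without ImuBcl6, and 5 rose and 3 fell with it. Their median difference was -0.26, with 17 of 25 below 0, and -0.12 with the Y-linked term (median male minus female -0.04). Ccnd2, cyclin D2, was 16.05, 17.2 and 16.9 CPM in WT and 57.1, 51.3, 43.1, 48.3 and 30.8 in D370Y. It was 35.3, 47.4, 32.9, 32.5 and 40.5 in ImuBcl6 and 43.1, 56.3, 67.3, 42.2 and 44.7 in ImuBcl6 D370Y. D370Y was well above WT, while the ImuBcl6 groups overlapped, and the difference of -0.98 ± 0.22 missed the threshold (limma adjusted p = 0.0627, male minus female -0.03). Prdm1, which encodes the plasma cell regulator BLIMP1, had effects of 1.07 and 0.17 and a difference of -0.90 (adjusted p = 0.273). Bcl2 and Gpr183, by contrast, had positive differences of 0.36 and 0.35 that also did not pass.

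Plasma cell genes had a median difference of -0.28, with 16 of 20 below 0, the median effect being 0.38 without ImuBcl6 and 0.11 with it. With the Y-linked term the median difference was -0.44 (median male minus female -0.02). Cd93, a receptor of plasma cell maintenance, was the one with the lowest p, at effects of 0.82 and 0.09 (difference adjusted p = 0.11 by limma). Summed plasma cell markers were 3766 to 4183 CPM in WT, 3490 to 5660 in D370Y, 3337 to 3515 in ImuBcl6 and 3302 to 4758 in ImuBcl6 D370Y. In bulk RNA, fewer cells of a type and less RNA per cell cannot be told apart. Interferon response genes had a median difference of -0.24, with 28 of 34 below 0. Lgals3bp, a secreted galectin-binding glycoprotein, led them at -1.30 ± 0.30 (adjusted p = 0.0692). Male minus female was below 0 in 31 of these 34, with a median of -0.21, and the median difference was 0.19 with the term for the Y-linked pattern.

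Cytosolic ribosomal protein genes had positive differences in 27 of 27, with a median of 0.24, and nuclear oxidative phosphorylation genes in 20 of 21, with a median of 0.18. None of these was called. Counts of ribosomal protein genes are uncertain because of their many near-identical pseudogenes. Male minus female was also positive in 25 of the 27 ribosomal genes (median 0.34) and all 21 oxidative phosphorylation genes (median 0.28), and with the term for the Y-linked pattern the median differences became -0.43 and -0.39. The part of sex in these list medians was not tested further.

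Germinal center genes fell in 2 of 19 and rose in 1 with D370Y without ImuBcl6, and 8 fell with it, beside 0.505%, 1.92% and 6.96% of all genes. The median difference was -0.03, or -0.28 with the Y-linked term, where that of all genes was -0.19 (median male minus female 0.11). Dark zone genes, which mark the dividing and mutating compartment, were called in 0 of 19 without ImuBcl6, and 5 fell and 1 rose with it, with a median difference of -0.04, or -0.28 with that term (median male minus female 0.10). The G1/S and G2/M lists had medians of 0.01 and -0.02, close to the median of all genes. Cholesterol and fatty acid synthesis genes lay below 0 in 19 of 23, with a median of -0.15, and male minus female was above 0 in most of them (median 0.12). Chromatin regulators mutated in lymphoma lay below 0 in 10 of 12, with a median of -0.23: the acetyltransferase genes Crebbp and Ep300 differed by -0.34 and -0.28 and the SWI/SNF subunit Arid1a by -0.28, none of them called. Male minus female had a median of -0.12 in that list, and with the term for the Y-linked pattern its median difference was 0.13.

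Myeloid markers rose in 9 of 12 tested members without ImuBcl6 and 8 of 12 with it, and their difference was below 0 in 12 of 12, or 11 of 12 under TMM scaling, with a median of -0.20. Their summed level, over 19 genes none of which was at 0 in all libraries of a group, was 73.5 to 90.5 CPM in WT, 129.1 to 146.2 in D370Y, 124.2 to 167.5 in ImuBcl6 and 171.2 to 251.5 in ImuBcl6 D370Y. Their part in the differences above was not tested.

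**Figure D5:**
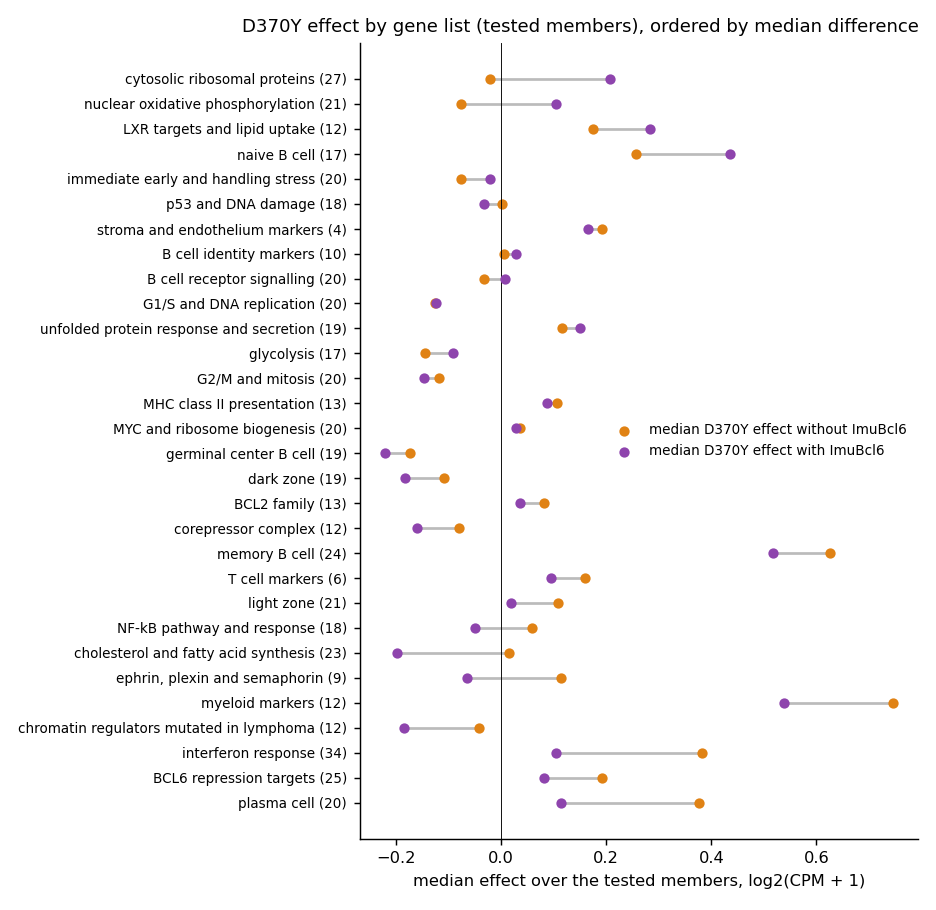
Median D370Y effect over the tested members of each list (number in brackets), without ImuBcl6 (orange) and with ImuBcl6 (purple), in log2 CPM + 1, ordered by median difference. The memory and myeloid lists were raised in both backgrounds, and the plasma cell median was 0.38 without ImuBcl6 and 0.11 with it.

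Of the corepressor itself, Tbl1xr1 was 156.4 to 175.9 CPM in WT, 135 to 165 in D370Y, 106.4 to 159 in ImuBcl6 and 94.7 to 101.4 in ImuBcl6 D370Y. Its effects were -0.21 ± 0.10 (limma adjusted p = 0.287) and -0.37 ± 0.08 (adjusted p = 0.00754), with a difference of -0.16 and an interval from -0.42 to 0.10. A heterozygous substitution need not change the level of the transcript, so this is no check of the labels. Bcl6 was 358 to 366 CPM in WT and 328 to 399 in D370Y. It was 522 to 590 in ImuBcl6 and 422 to 512 in ImuBcl6 D370Y, higher with ImuBcl6 in every library and lower when D370Y was added (effect -0.24 ± 0.06, adjusted p = 0.019). The difference of effects for Bcl6 was -0.23, with an interval from -0.44 to -0.03, and missed the threshold over all genes (adjusted p = 0.332). In the corepressor complex list of 12 tested members, which includes Tbl1xr1 and Bcl6, 0 passed the test without ImuBcl6 (2.42% of all genes did) and 5 fell with it (6.96% of all genes did). The median difference was -0.05, or -0.15 with a term for the Y-linked pattern, where that of all genes was -0.19 (median male minus female -0.04).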

How the data were processed

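RNA-seq of mouse germinal center B cells was analysed from the authors' deposited CPM, 1 table per library with 23382 gene symbols. Per the submitters' processing notes, reads were aligned with STAR to mm10. The sources used here do not give the counting tool, strand setting or annotation, so reads of overlapping or antisense genes cannot be assigned with certainty. Per the labels' protocols a stranded TruSeq kit was used for the KO and Cre control libraries. For the other libraries these sources name no kit. Every CPM value was a whole multiple of the worth of 1 read, within 0.01 read, in 100% of values. Depth was 19.02 to 37.7 M reads on listed genes, 64.4% to 84.6% of the authors' denominator.

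Of the symbols 22902 were placed in GENCODE M21. Genes on X or Y (355) or without position (114) were kept out. The fit used limma 3.58.1 (R 4.3.3) on log2(CPM + 1) with a trend and robust moderation, 4 group means over 18 libraries, two-sided tests and Benjamini-Hochberg adjustment over all 10697 genes. The difference is (ImuBcl6 D370Y minus ImuBcl6) minus (D370Y minus WT). The pseudocount understates changes of low genes. The male minus female comparison used libraries with at least 1 CPM of Ddx3y as male, with a term for group. On simulated reads for this difference over 10575 genes, 66% of 1.5-fold and 91% of 2-fold changes were recovered, with 4 false calls. Changes were placed only in genes at a mean CPM of at least 5. Reads were drawn independently per gene without a sex difference, so these shares do not cover lower genes or deviations shared between genes. Alternatives included edgeR 4.0.16 and DESeq2 1.42.0 on the recovered reads.

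The comparison, gene lists and named-gene rule were chosen with earlier results of these data known. Named were Tbl1xr1, Bcl6, up to 10 called genes per direction by size at a mean CPM of at least 5 without predicted gene models, filled by lowest p as values only, up to 3 called members per list or else the 1 with the lowest p, 10 genes called in both backgrounds with the same sign, and those called with opposite signs. The other called genes, the KO values and further list members were named after their values were seen. A gene that the rule names is not reported here. Promoter windows are RefSeq's for GRCm38.p6 and matched 31 of 36 called genes.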

Additional observations from a re-analysis of the deposited data

Results flagged for a closer look

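The limma contrast of D370Y effects between backgrounds, which in these 18 libraries is the same contrast as sex, was called at 36 genes. The log2 differences were -3.33 for Capn11, -2.18 for Emp2, -1.96 for 1700048O20Rik, -1.74 for Eepd1, -1.61 for Zfp365, -1.36 for Vopp1, -1.32 for Efcab7, -1.31 for Reln, -1.27 for Atp10b, -1.25 for Tox, -1.23 for Celsr1, -1.07 for Lrrc8b, -1.04 for Hoxa5 and -0.9999 for Etl4. They were -0.98 for Rgs3, -0.92 for Cysltr2 and Eif2c4, -0.82 for Nfic, -0.79 for Coro2b, -0.73 for Zmiz1, -0.71 for Ksr1, -0.69 for Cryz, -0.67 for Mrgpre, -0.64 for Ccdc21, -0.56 for Lrrc8c, -0.52 for Afmid and Chst15, -0.49 for Atmin and Mcm9, -0.48 for Eif2c1, -0.46 for Slc29a1, -0.39 for Fmnl3 and Cyfip2 and -0.35 for Thada. The positive values were 0.48 for D1Ertd622e and 1.79 for Eps8l1. With all 28 libraries and a term for the Y-linked pattern, 1 of the 36 genes, Capn11, stayed called. It was near 0 CPM in the KO and Cre control libraries that set this term.

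Single libraries stood far from the other 4 of their group in 14 of 252 sets (84 genes in 3 groups of 5), where chance alone flags about 1 in 20. Replicate 3 of ImuBcl6 D370Y accounted for 5 of them: Plac8 at 257.9 CPM against 96.1 to 131.7, Fcrl5 at 44.3 against 21.7 to 26.8, Thada at 45.4 against 41.8 to 42.2, Zmiz1 at 48.5 against 45.6 to 46.4, and Tox, the only low one of these, at 23.2 against 26.9 to 28.4. In the same group Afmid was 22.1 CPM in replicate 5 (others 18.6 to 19.6) and Il4ra 349.7 in replicate 4 (others 244.2 to 273.3). In D370Y replicate 4, 1700048O20Rik was 11.0 CPM (others 7.64 to 8.51), Tnfaip3 46.6 (others 35.3 to 37.7) and Scp2 29.7 (others 33.5 to 34.6). Bank1 was 427.0 CPM in D370Y replicate 5 (others 313.1 to 339.3). In ImuBcl6, Nfic was 11.0 CPM in replicate 1 (others 13.0 to 13.6), Plxna1 1.26 in replicate 1 (others 2.53 to 3.01), and Lrrc8b 13.4 in replicate 2 (others 7.85 to 9.36).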

How the results depend on the processing

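With 3 WT libraries the comparison is limited by replication: the median SE of a difference was 0.136. The count of 36 called differences ranged from 11 to 65 when 1 library was left out: 11 and 16 without WT replicates 3 and 1, 20, 20 and 23 without D370Y replicates 1, 2 and 4, 21 and 18 without ImuBcl6 replicates 2 and 4, and 65 without ImuBcl6 replicate 1. The D370Y effect without ImuBcl6 (259) ranged from 41 to 323, with 41, 88 and 111 without WT replicates 3, 2 and 1 and 162 without D370Y replicate 4. The effect with ImuBcl6 (1143) ranged from 654 to 1381, with 654 without ImuBcl6 replicate 3 and 734 without ImuBcl6 D370Y replicate 3. Same-direction genes (116) ranged from 25 to 117, with 25, 43 and 54 without WT replicates 3, 2 and 1, and opposite-direction genes (6) from 3 to 8.

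Called differences numbered 73 with X and Y genes included, 159 by DESeq2, 169 with library weights and 1 with all 28 libraries and a term for the Y-linked pattern. In that last fit Thada reversed to 0.15. The effect without ImuBcl6 called 156 genes at a mean CPM of at least 5, 446 by DESeq2, 1024 with library weights and 15 with the Y-linked term, which left 260 for the effect with ImuBcl6. Same-direction genes were 74 with no filter on low values, 203 by DESeq2, 288 with library weights and 1 with the Y-linked term. Opposite-direction genes were 3 at a mean CPM of at least 5, 18 with X and Y genes, 11 with CPM over reads on listed genes, 12 by DESeq2, 21 with library weights and 1 with the Y-linked term. The stricter filter tested fewer genes, and including X and Y genes or dropping the filter tested more. The cause of the other changes was not tested. Male minus female called 0 genes without the term for group.

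Under pseudocounts of 0.5 and 5, no filter, CPM over listed reads, TMM, edgeR, moderation that was not robust and a fit of 28 libraries, called differences numbered 43, 37, 26, 36, 30, 32, 40 and 38. All 36 genes kept their sign in each of these. With the replicate block 31 were called, and 23 of the 36 remained. No label says what a replicate number marks. For libraries with the same number the correlation of their deviations was -0.29 to 0.50, over 0.1 in 6 of 24 pairs. For pairs with other numbers it was -0.47 to 0.41, over 0.1 in 31 of 96.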

Other observations

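The libraries without ImuBcl6 stood apart from the other 20 at Acat3, an acetyl-CoA acetyltransferase gene with near-identical paralogs. It was 0.344 to 0.443 CPM in WT and 0 to 0.153 in D370Y, against 90.0 to 103.3 in ImuBcl6, 95.6 to 120.5 in ImuBcl6 D370Y, 47.9 to 68.6 in the libraries labelled KO and 57.6 to 76.6 in their Cre controls. Cntd1, a cyclin-domain gene of meiotic crossover formation, split the same way, at 1.17 to 4.47 CPM in WT and D370Y and 14.5 to 27.4 in the other 4 groups. The Cre controls carry the same genotype label as WT. The differences of D370Y effects were 0.49 for Acat3 (limma adjusted p = 0.0669) and 0.78 for Cntd1 (adjusted p = 0.0627), neither of them called.

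Other positive differences that missed the threshold were Klhl14, a BTB-Kelch gene of B cell receptor control, at 0.73 (limma adjusted p = 0.0669), Lxn, a carboxypeptidase inhibitor, at 0.59 (adjusted p = 0.0627), and Tra2a, a splicing regulator, at 0.59 (adjusted p = 0.0508). Klhl14 was 8.72 ± 1.49 CPM in ImuBcl6 and 14.6 ± 1.74 in ImuBcl6 D370Y (SD, n = 5 each), against 25.0 ± 2.62 in WT (n = 3) and 24.4 ± 3.37 in D370Y (n = 5).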
